A study of Homo sapiens with 2 samples.

Results

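The genes described here mark the identity of pancreatic ductal adenocarcinoma cells. The members were a chosen list of 36 of the 19974 protein-coding genes on chromosomes 1 to 22 and X. They fell into 16 genes of the classical, gut-like programme, 9 genes of ducts and simple epithelia, 7 basal genes and 4 genes of pancreatic progenitors. They were followed in PANC-1, a long-established line grown from a human ductal tumour of the pancreas, with no genetic change named in the labels. The series holds 1 sample treated with DMSO, the solvent, and 1 treated with inflachromene, a compound that binds HMGB1 and HMGB2, abundant chromatin proteins. Chromatin was fixed with EGS and formaldehyde and profiled by ChIPmentation, an immunoprecipitation in which Tn5 transposase cuts the captured chromatin and adds the adapters. No source used here gives the antibody's target, the dose or the length of treatment, so a peak below is a place where captured fragments piled up, whatever the protein.

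Pancreatic cancers are commonly divided by expression into a classical state, carried by endodermal transcription factors such as GATA6, HNF4A and the FOXA proteins, and a basal-like state with keratins and laminins of stratified epithelia. Duct cells keep SOX9 and the simple-epithelium keratins KRT7, KRT8, KRT18 and KRT19. PDX1, PTF1A and ONECUT1 act in the embryonic pancreas, and HES1 is the main effector of Notch signalling there. PANC-1 itself is known as a poorly differentiated line with mesenchymal features.

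Each library was represented by 1 peak list, with 15186 peaks in DMSO and 10836 in inflachromene. The summit pileup, the number of fragments over the highest point of a peak, was recovered from the deposited values and had a median of 23 in both lists. The lowest background was 0.651 fragments in DMSO and 0.683 in inflachromene. Each was divided by the width of the narrowest peak in its list, 152 and 165 bp. From these values per base, the inflachromene library was inferred to hold 0.966 times as many fragments as DMSO. With 1 sample per treatment no test between treatments was possible, no p-value is given, and intervals cover counting error only. A peak was assigned to a gene when its summit lay inside the gene or within 50 kb of it, and was called a peak at an end when the summit lay within 1000 bp of either annotated end. Peaks of the 2 lists that had 1 bp or more in common were called shared.

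The upstream sequences of 3 genes show the range met in this list. HES1 had a peak directly before its start in both libraries, and the letters are those under the DMSO peak, chr3:194135923-194136127 on the plus strand. GATA6 and KRT5, a classical regulator and a basal keratin, had no summit within 50 kb in either library. Their letters are the 250 bases before the start, chr18:22169339-22169588 on the plus strand and chr12:52520395-52520644 on the minus strand. All are from RefSeq on GRCh38.p14, printed from 5′ to 3′ along the gene, with capitals for TGGGAA, the core bound by the Notch effector RBPJ, and for CCAAT, the core bound by NF-Y. Both motifs were searched on both strands and do not overlap.
HES1: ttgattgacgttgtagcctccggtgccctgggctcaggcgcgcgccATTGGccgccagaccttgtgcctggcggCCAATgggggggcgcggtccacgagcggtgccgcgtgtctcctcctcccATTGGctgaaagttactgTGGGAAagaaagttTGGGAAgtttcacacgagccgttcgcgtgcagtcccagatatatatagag
GATA6: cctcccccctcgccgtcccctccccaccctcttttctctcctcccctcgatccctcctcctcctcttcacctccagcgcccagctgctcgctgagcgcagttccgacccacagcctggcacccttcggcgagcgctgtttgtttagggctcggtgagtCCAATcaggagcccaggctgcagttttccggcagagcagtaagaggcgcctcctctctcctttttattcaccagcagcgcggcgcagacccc
KRT5: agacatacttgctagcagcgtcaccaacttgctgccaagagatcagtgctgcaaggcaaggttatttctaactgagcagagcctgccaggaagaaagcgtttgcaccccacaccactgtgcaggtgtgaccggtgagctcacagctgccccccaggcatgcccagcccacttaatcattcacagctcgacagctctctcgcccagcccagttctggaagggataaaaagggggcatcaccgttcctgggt

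The HES1 peak held 2 matches to TGGGAA, which end 79 and 65 bases before the start, and 3 to CCAAT, which end 175, 147 and 98 bases before it. At least 1 match to TGGGAA was found in the 250 bases before 20.1% of 22132 listed coding starts, and at least 2 in 2.67%. For CCAAT the shares were 32.7% for at least 1 match and 3.34% for at least 3. GATA6 had 1 match to CCAAT and none to TGGGAA, and KRT5 had neither. Among the 23 listed member starts 5 had TGGGAA and 6 had CCAAT. These starts belong to 19 members, and a pair of MUC1 starts with nearly the same 250 bases was counted separately. In all 8 motifs were searched, and the HES1 peak held none of the other 6. These were TATAAA (bound by TBP, 5 of 23 member starts against 8.996% of all starts), GGGCGG (GC box, 10 against 53.7%) and TGANTCA (AP-1, 6 against 5.35%). The rest were TGTTTAC (forkhead, 1 against 2.45%), AGATAA (core of the GATA factors, 3 against 7.08%) and GGAATG (TEAD, 3 against 10.5%). These matches are letters in a window and say nothing of which factor was captured.

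Peaks at gene ends were fewer among the identity genes than among coding genes at large. In DMSO 10 of 36 members (27.8%, exact 95% interval 14.2 to 45.2) had a peak at an end, against 45.7% of all coding genes. In inflachromene 7 of 36 (19.4%, 8.19 to 36.02) had one, against 38.0%. The members with an end peak in both lists were FOXA2, ELF3, SOX9, KRT8, KRT18, S100A2 and HES1, against 36.3% of all coding genes. Those with one in DMSO alone were MUC1, KRT19 and PDX1, against 9.41% of all coding genes. No member had one in inflachromene alone, where the background was 1.69%.

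The classes differed in these counts. Of the 16 classical genes 2 (12.5%, 1.55 to 38.3) had an end peak in each library, FOXA2 and ELF3. Of the 9 ductal genes 5 (55.6%, 21.2 to 86.3) had one in DMSO and 3 (33.3%, 7.49 to 70.1) in inflachromene. In DMSO KRT8 and KRT18 were both counted through 1 and the same peak, while the interval treats genes as independent. Of the 7 basal genes 1 (14.3%, 0.361 to 57.9), S100A2, had one in each library. Of the 4 progenitor genes 2 had one in DMSO, PDX1 and HES1, and 1 in inflachromene, HES1. Only the classical interval in DMSO lay wholly below the share of all coding genes; the other classes' intervals included it, and the ductal, basal and classical intervals overlapped one another.

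**Figure D1:**
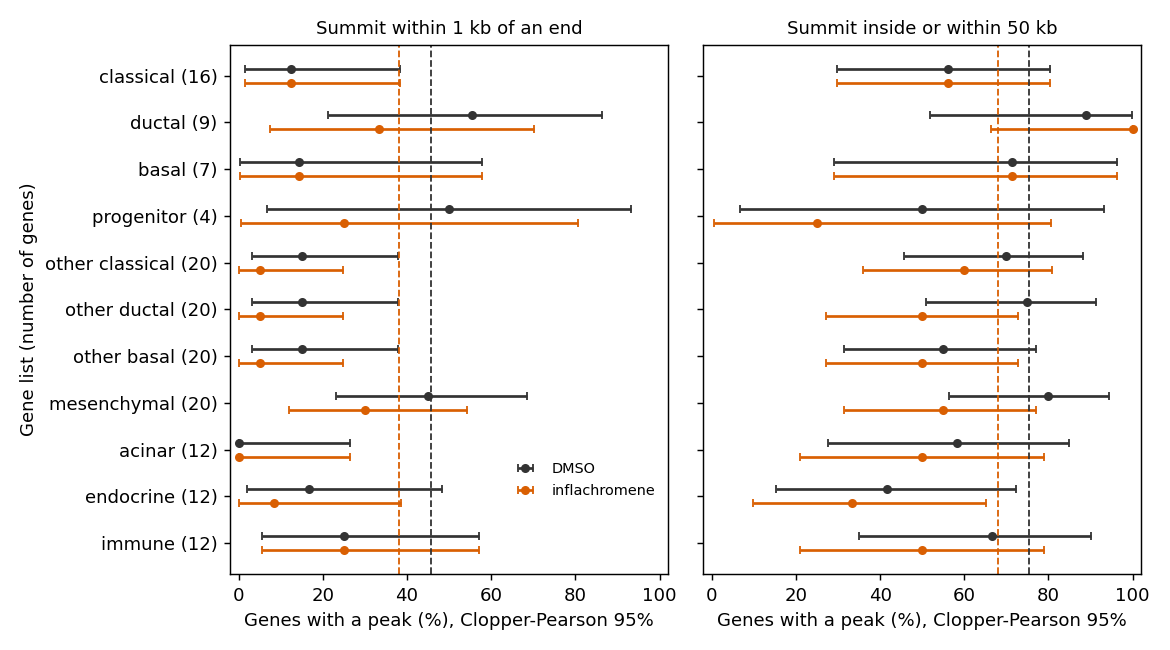
Percentage of genes in each list with a summit within 1 kb of an end (left) and inside or within 50 kb (right), by library, with exact 95% intervals; dashed lines mark all coding genes. Classical genes stand at 12.5% at ends in both libraries, ductal genes at 55.6% and 33.3%, and the wide intervals of the short lists overlap.

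With the surroundings included, the intervals for the list included the genome's shares. Within the gene or 50 kb, 24 of 36 members (66.7%, 49.0 to 81.4) had a peak in each library, against 75.3% of coding genes in DMSO and 68.0% in inflachromene. The members have a median length of 8282 bp against 24170.5 bp for all coding genes, so less sequence was searched for each. Both the members and all coding genes had a median of 2 other coding genes within that distance. Over 4.61 Mb around the members 68 distinct DMSO peaks (14.8 per Mb) and 55 inflachromene peaks (11.9 per Mb) were found. The densities around all coding genes were 7.69 and 5.56 per Mb. By class the DMSO densities were 10.8 per Mb for classical, 27.6 for ductal, 8.76 for basal and 17.9 for progenitor genes. In inflachromene they were 10.3, 23.7, 6.37 and 8.97.

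Most of these peaks lay outside the members. Of the 68 DMSO peaks, 10 lay at an end of a member, 3 deeper inside a member and 55 in the flanks. Of the flanking peaks 21 lay within 1000 bp of an end of another coding gene. In inflachromene the numbers were 7, 4 and 44, with 17 of the flanking peaks at other genes' ends. HNF4A, a master regulator of the classical state on chromosome 20, had such peaks alone. Its only peaks were 68 bp from an end of FITM2 (29 fragments in DMSO, 23 in inflachromene) and 9 bp from an end of TTPAL (22 and 14), 44429 and 41269 bp from the gene.

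**Figure D2:**
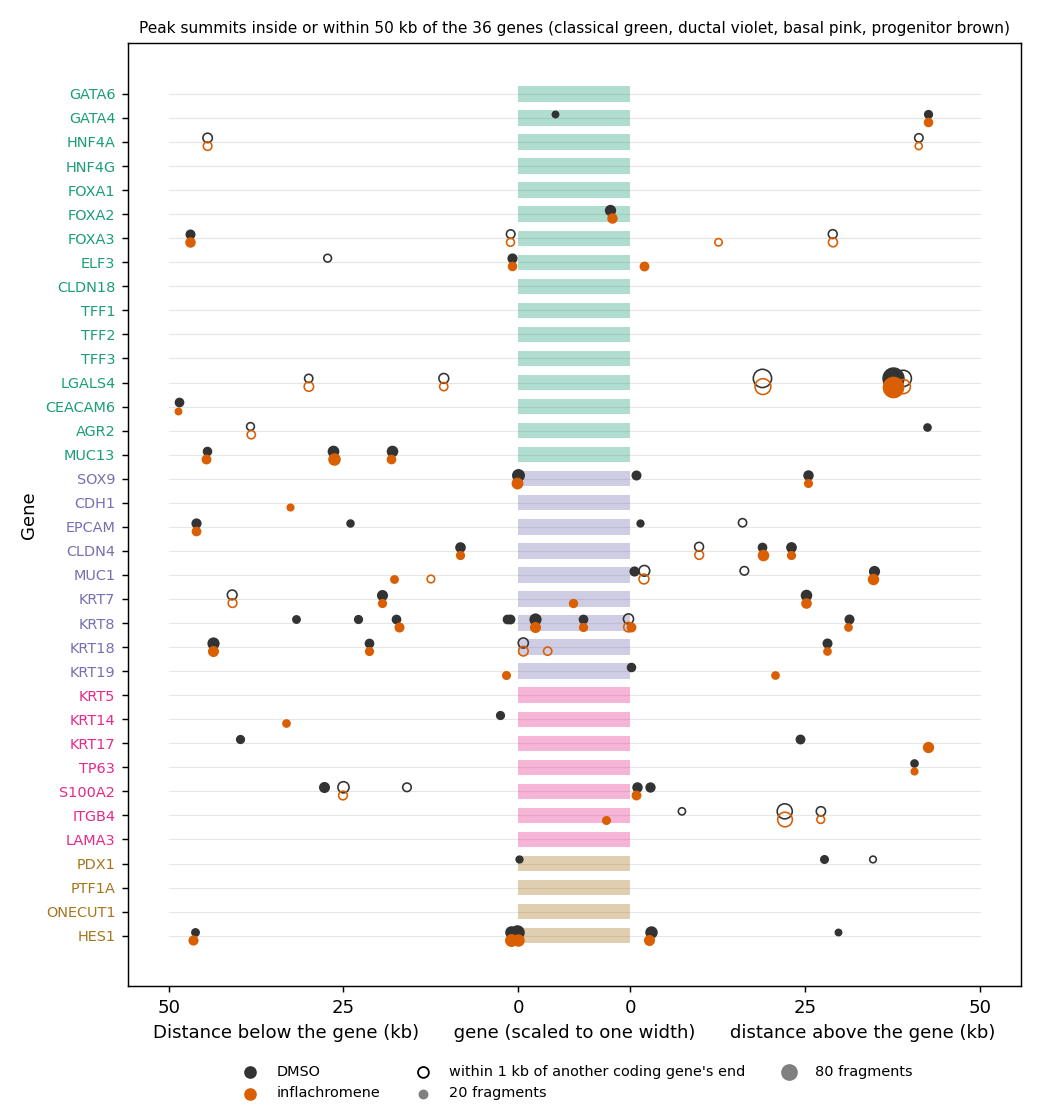
Summits around each of the 36 genes, as distance in kb below or above the gene on the chromosome, with gene bodies drawn at 1 common width; point area grows with pileup, open points lie within 1 kb of another coding gene's end. GATA6, HNF4G, FOXA1, CLDN18, TFF1, TFF2, TFF3, KRT5, LAMA3, PTF1A and ONECUT1 have no point in either library.

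No summit lay inside or within 50 kb of 11 of the 36 members in either list, against 23.6% of all coding genes. They were 7 classical genes, 2 basal genes and 2 progenitor genes. GATA6, the transcription factor most used to define the classical state (chromosome 18, 22169589 to 22202528), had its nearest summit 429 kb away in both libraries. FOXA1, a pioneer factor (chromosome 14), had it 356 kb away in DMSO and 392 kb in inflachromene. HNF4G, a nuclear receptor gene on chromosome 8, had it 1057 kb away in DMSO. The trefoil peptide genes TFF1, TFF2 and TFF3, neighbours on chromosome 21, had the nearest DMSO summits 130 kb (129.9), 145 kb and 181 kb away. CLDN18, a gastric claudin, had it 81.9 kb away. Of the basal genes, KRT5 had the nearest DMSO summit at 59.7 kb and LAMA3, a laminin chain, at 102.4 kb. Of the progenitor factors, PTF1A had it at 96.9 kb and ONECUT1 at 75.7 kb.

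Base composition of the starts was also compared, for the 19 members in the RefSeq promoter table with 23 listed starts. FOXA2, SOX9, KRT18, KRT19 and PDX1, which had end peaks in DMSO, are not among them and are missing from the counts below. The listed KRT8 start lies inside the gene, away from its end peak. All 22132 listed starts were ranked by the G and C content of the 250 bases before them and cut into 4 groups of near equal size. The share with a DMSO summit within 1000 bp was 14.7%, 46.1%, 59.3% and 61.1% from the group with least G and C to that with most. The starts of ONECUT1 (76.8% G and C), FOXA3 (75.2%), FOXA1 (67.2%) and GATA6 (64.4%) lie in the upper 2 groups and had no summit within 1000 bp. Of all 23 member starts 5 had one, at S100A2, ELF3, HES1 and the pair of MUC1 starts. From least to most G and C these were 0 of 5, 3 of 11, 2 of 5 and 0 of 2 member starts.

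FOXA2 had the end peak with the most fragments among the classical genes in both libraries, though ELF3's had the higher fold enrichment in DMSO. FOXA2, the gene for a pioneer factor of endoderm, lies on chromosome 20 (22580998 to 22585490), and the DMSO peak (22584497 to 22584977) lies inside it, 801 bp from the upper end. Its summit pileup was 31 fragments in DMSO (exact Poisson interval, 21.1 to 44.0). In inflachromene it was 25 (16.2 to 36.9), at fold enrichments over local background of 6.54 and 6.19. The ratio of inflachromene to DMSO was 0.806, with an exact interval of 0.457 to 1.41 that includes 1. ELF3, an epithelial ETS factor gene on chromosome 1, had its peak (202009640 to 202009839) 863 bp before the start. It held 23 fragments in DMSO (14.6 to 34.5) and 19 in inflachromene (11.4 to 29.7), at fold enrichments of 7.04 and 6.05. A second ELF3 peak of 21 fragments, 1940 bp beyond the 3′ end, was called in inflachromene alone. Both FOXA2 and ELF3 thus had end peaks of similar height in the 2 libraries.

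Among the other classical regulators FOXA3 and GATA4 had peaks nearest to the gene. FOXA3 just missed the end window, with a shared peak 1096 bp before its start in DMSO. That summit lies 83 bp from an end of SYMPK, a gene of the polyadenylation machinery, and held 23 and 19 fragments. Its strongest peak, 137 bp from an end of MYPOP, held 25 and 26. GATA4, the partner of GATA6, had a peak of 10 fragments inside the gene (chromosome 8, 11704132 to 11704298) in DMSO alone. It also had a shared flanking peak nearer to FDFT1, with 17 and 19 fragments.

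The classical effector genes, coding for secreted and surface proteins of gut-like cells, had no peak at an end or inside. AGR2, a disulfide isomerase gene of mucus-secreting cells, had a shared peak 243 bp from an end of TSPAN13 (18 and 21 fragments) and a DMSO peak of 14 fragments nearest to AGR3. CEACAM6, an adhesion molecule gene, had 1 shared peak 48.5 kb before its start and, in DMSO, 1567 bp from an end of CEACAM5. It held 20 fragments in DMSO (12.2 to 30.9) and 10 in inflachromene (4.80 to 18.4), the lowest ratio of all shared peaks in the list, 0.5 (0.209 to 1.12). MUC13, a membrane mucin gene, had 3 shared peaks beyond its 3′ end. They held 19, 34 and 33 fragments in DMSO and 21, 41 and 20 in inflachromene, so the libraries did not keep one order.

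LGALS4, a galectin gene of the gut on chromosome 19 (38801674 to 38812945), had the highest pileups around it. Its 5 flanking peaks, all shared, held 21, 32, 123, 161 and 97 fragments in DMSO and 29, 21, 91, 149 and 72 in inflachromene. None lay within 10 kb of LGALS4, and 4 of the 5 DMSO summits lay at ends of LGALS7, LGALS7B, ECH1 and HNRNPL. The recovered background under the 3 highest was 11.5, 15.5 and 14.9 fragments, against a median of 2.01 and a 95th percentile of 5.39 over all DMSO peaks. Whether the high background bears on these pileups was not tested. The fold enrichments, which divide by it, were 9.94, 9.84 and 6.15.

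SOX9, the transcription factor of the duct lineage, had peaks at both of its ends. On chromosome 17 (72121020 to 72126416), the shared peak at the lower end (72120711 to 72121045) had its summit 78 bp outside the gene in DMSO. It held 44 fragments in DMSO (31.97 to 59.1) and 35 in inflachromene (24.4 to 48.7), at fold enrichments of 8.11 and 7.15. The peak at the upper end, 772 bp outside the gene, held 22 fragments in DMSO (13.8 to 33.3) and was not called in inflachromene. Another peak, 25397 bp above the gene and nearest to it among coding genes, held 25 fragments in DMSO and 16 in inflachromene. No other coding gene lies within 50 kb of SOX9. Each place thus had fewer fragments, or no call, in inflachromene, while the ratio intervals of both shared peaks (0.495 to 1.27 and 0.319 to 1.247) include 1.

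The keratin pair KRT8 and KRT18, which form the filaments of simple epithelia, had the most peaks of any locus in the list. KRT8 (chromosome 12, 52897191 to 52949860) and KRT18 (52948855 to 52952906) overlap at their ends. Together they had 9 DMSO peaks, of which 5 were not shared, and 6 inflachromene peaks. The peak at the overlap (52948845 to 52949208) lies 179 bp from the lower end of KRT18 and 826 bp from the upper end of KRT8, and cannot be credited to 1 of them. It held 34 fragments in DMSO (23.5 to 47.5) and 30 in inflachromene (20.2 to 42.8).

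The strongest peak of the pair in DMSO lay inside KRT8 (52904865 to 52905284), with 38 fragments in DMSO (26.9 to 52.2) and 29 in inflachromene (19.4 to 41.6). A weaker one inside KRT8 held 20 and 17. At the 3′ side of KRT8, 5 DMSO peaks of 15 to 21 fragments were not called in inflachromene, with summits at 1195, 1667, 17558, 22886 and 31747 bp. Conversely, a peak 57 bp beyond the upper end of KRT8 (52949834 to 52949998) was called in inflachromene alone. The same peak lies inside KRT18, 1062 bp from its lower end. It held 21 fragments (13.0 to 32.1). Another inflachromene peak without a DMSO peak, 17077 bp below KRT8, held 22. The strongest DMSO peaks of the locus were thus called in both libraries, and the peaks called in 1 library held at most 22 fragments.

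KRT19 and KRT7, the other ductal keratins, had no shared peak at the gene itself. KRT19 (chromosome 17, 41523617 to 41528308) had a DMSO peak 64 bp from its upper end with 19 fragments (11.4 to 29.7). In inflachromene no peak was called there, and a peak of 16 fragments (9.15 to 26.0) was called 1714 bp below the lower end. KRT7 had 3 shared flanking peaks with 31, 29 and 33 fragments in DMSO and 24, 17 and 26 in inflachromene. A peak of 18 fragments inside KRT7 was called in inflachromene alone.

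The ductal surface genes had mostly distant peaks. MUC1, the membrane mucin gene on chromosome 1, had a DMSO peak 598 bp before its start with 23 fragments (14.6 to 34.5), which was not called in inflachromene. Its fold enrichment of 3.5, over a background of 5.86 fragments, was the lowest of the 68 DMSO peaks. A shared peak 2017 bp before the start, 656 bp from an end of THBS3, held 39 and 32. CLDN4, a tight junction gene on chromosome 7, had 4 shared flanking peaks with 26, 25, 20 and 27 fragments in DMSO and 17, 24, 33 and 17 in inflachromene. The CLDN4 peak with 20 and 33 had the highest ratio of the list, 1.65 (0.919 to 3.03).

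EPCAM, the epithelial adhesion molecule gene, had 4 DMSO peaks, of which 3 were not called in inflachromene. The nearest, 1370 bp from its upper end, held 12 fragments. The shared peak, 46.0 kb away, held 23 and 20. CDH1, the E-cadherin gene and the usual mark of an epithelial state, had no DMSO peak within 50 kb; its nearest DMSO summit was 207 kb away. An inflachromene peak of 11 fragments (5.49 to 19.7) lay 32.7 kb below it, nearest to CDH3.

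**Figure D3:**
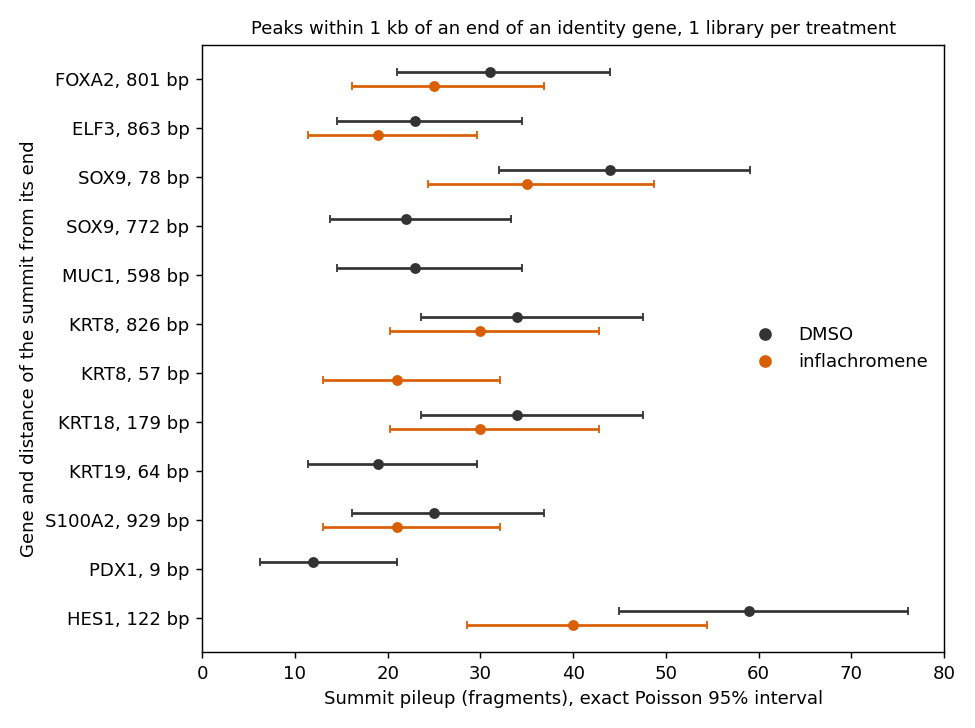
Summit pileup in fragments, with exact Poisson 95% intervals, for each peak within 1 kb of an end of a listed gene, with the distance from that end in the first library named. All shared peaks are lower in inflachromene, from 59 against 40 at HES1 to 34 against 30 at KRT18, with overlapping intervals; the KRT8 peak at 826 bp and the KRT18 peak are the same one.

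Among the basal genes only S100A2, a calcium-binding protein gene of the basal-like state, had an end peak. It lay 929 bp before the start in DMSO (chromosome 1, 153566496 to 153566907) and held 25 fragments (16.2 to 36.9) against 21 in inflachromene (13.0 to 32.1). A DMSO peak of 24 fragments, 2873 bp before the start, was not called in inflachromene. Other peaks around S100A2 lay near S100A6 and S100A4. At the S100A6 end the summit held 43 fragments in DMSO (31.1 to 57.9) and 24 in inflachromene (15.4 to 35.7), a ratio of 0.558 (0.324 to 0.941).

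The basal keratins KRT14 and KRT17 (chromosome 17) had peaks in both lists but none at a shared place. A DMSO peak of 17 fragments lay 2580 bp from KRT14, and one of 21 fragments 24.3 kb from KRT17. The inflachromene peaks lay at other places, with 14 fragments 33.3 kb from KRT14 and 31 fragments 42.6 kb from KRT17. TP63, the master regulator of basal cells (chromosome 3), had no peak within its 300531 bp and 1 shared peak 40.5 kb beyond its 3′ end, with 14 and 11 fragments.

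ITGB4, the hemidesmosome integrin gene, had an inflachromene peak of 16 fragments inside it and none there in DMSO. Its strong neighbour, 128 bp from an end of the histone gene H3-3B, held 82 fragments in DMSO (65.2 to 101.8) and 77 in inflachromene (60.8 to 96.2). A DMSO peak of 15 fragments, 16 bp from an end of GALK1, was not called in inflachromene.

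HES1, the Notch effector gene on chromosome 3 (194136148 to 194138732), had the highest pileup at any end of a listed gene. The summit under the printed sequence lay 122 bp before the start in DMSO and 104 bp before it in inflachromene. It held 59 fragments in DMSO (44.9 to 76.1) and 40 in inflachromene (28.6 to 54.5), a ratio of 0.678 (0.442 to 1.03). A second peak, 1103 bp before the start and so just outside the end window, held 41 and 44. One 2928 bp beyond the 3′ end, held 40 and 29. The ratio intervals at these 3 places all included 1.

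The HES1 peaks stood on a high local background, 10.6, 9.66 and 7.95 fragments in DMSO, so that their fold enrichments were modest (5.18, 3.94 and 4.58). They and the LGALS4 peaks made up 6 of the 9 DMSO peaks of the list with a background above the 95th percentile of all DMSO peaks. A more distant HES1 peak, 46261 bp before the start, held 15 and 23.

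PDX1, the master regulator of the pancreatic bud (chromosome 13, 27920000 to 27926313), had 3 peaks in DMSO and none in inflachromene within 50 kb. The summit at its lower end lay 9 bp inside the gene and held 12 fragments (6.20 to 21.0). The others held 16 and 12 fragments, the second 108 bp from an end of CDX2, an intestinal homeobox gene. The nearest inflachromene summit was 298 kb away. At 12 to 16 fragments these peaks were below the DMSO median of 23, and a place without a call has no deposited value.

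**Figure D4:**
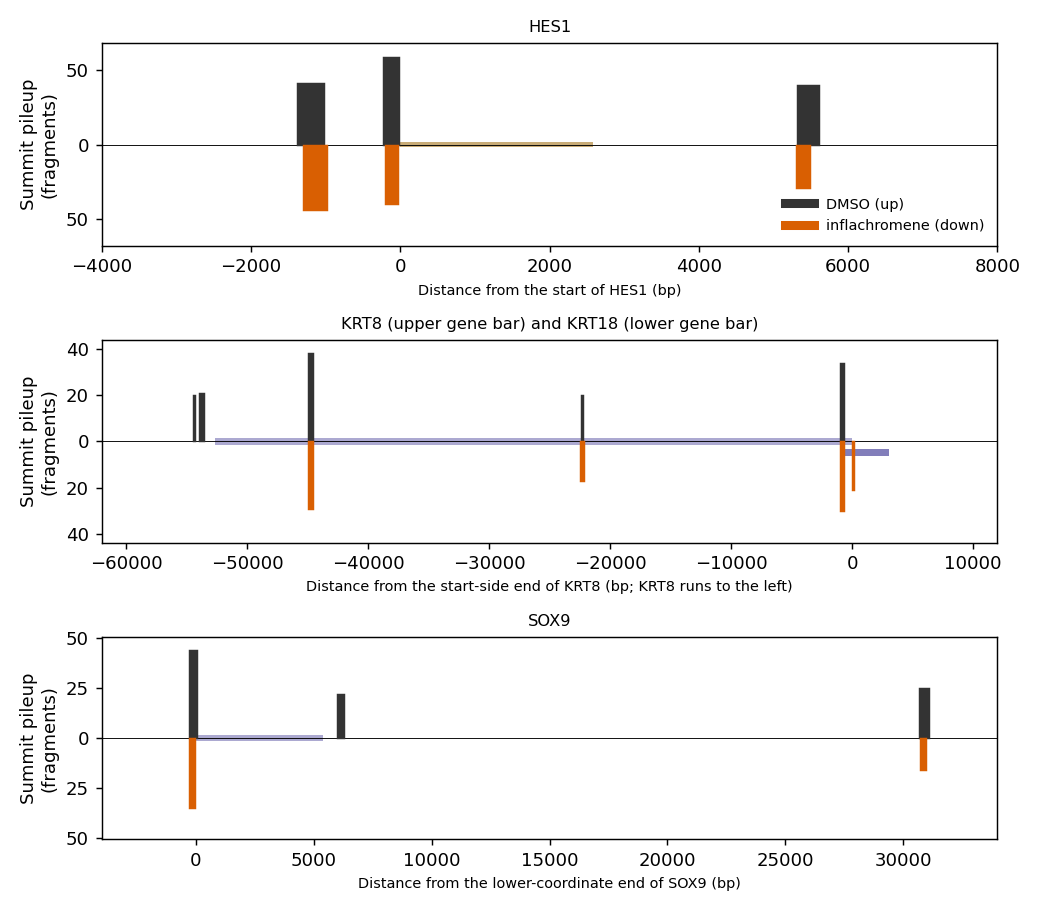
Peaks at HES1, at KRT8 with KRT18, and at SOX9, drawn from start to end with the summit pileup as height, DMSO upward and inflachromene downward; coloured bars are the genes. HES1 has 3 shared peaks nearby. An inflachromene peak 57 bp beyond the upper end of KRT8, inside KRT18, is lacking in DMSO. The SOX9 peak 772 bp above the gene is present in DMSO alone.

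The lists were next compared peak by peak around all members. Of the 68 DMSO peaks, 25 (36.8%, 25.4 to 49.3) had no inflachromene peak, against 35.5% of all DMSO peaks and 34.4% of those within 50 kb of coding genes. At the members' ends 4 of 10 (12.2 to 73.8%) had none, at SOX9, MUC1, KRT19 and PDX1, against 23.8% of all DMSO peaks at ends. With the DMSO list cut to the length of the inflachromene list by −log10 p, 17.4% of 46 member peaks (7.82 to 31.4) had no inflachromene peak, against 20.6% of all DMSO peaks so cut and 20.1% of those within 50 kb of coding genes. With that cut 7 members had an end peak in DMSO, against 37.9% of all coding genes. By class, with the full DMSO list, peaks without an inflachromene peak were 3 of 21 for classical, 12 of 28 for ductal, 6 of 11 for basal and 4 of 8 for progenitor genes. The classical interval (3.05 to 36.3%) overlapped the ductal (24.5 to 62.8%) and the basal one (23.4 to 83.3%). Of the 55 inflachromene peaks 12 (21.8%, 11.8 to 35.01) had no DMSO peak. The shares were 9.62% of all inflachromene peaks and 9.31% of those within 50 kb of coding genes, both below the interval. Most member peaks lay in flanks, and whether place bears on this share was not tested. Of the 27 flanking peaks at no gene end 7 (25.9%, 11.1 to 46.3) had none. That interval includes the shares around all coding genes, 17.3% in flanks and 15.2% inside. Of the 4 peaks inside members 2 had none, and of the 31 at no gene end 9 (29.0%, 14.2 to 48.0). Of the 17 flanking peaks at other genes' ends 2 had none (1.46 to 36.4%). At the members' ends 1 of 7 (0.361 to 57.9%) had none, against 5.51%. The pileups of the 12 ran from 11 to 31 fragments.

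Shared peaks held fewer fragments in inflachromene, here as across the genome. Over the 43 shared peaks of the list the inflachromene pileup was a median of 0.806 times the DMSO pileup (0.742 to 0.882), and 32 (74.4%) were lower. Over all 9796 shared peaks the median was 0.833 and 74.7% were lower. Both medians lie below the inferred ratio of fragment numbers, which was taken per base of the narrowest peak's width, unlike the pileups. The lowest backgrounds, in fragments as the pileups are, were 0.651 in DMSO and 0.683 in inflachromene, so higher in inflachromene. By class the medians were 0.826 for 18 classical, 0.792 for 16 ductal, 0.786 for 5 basal and 0.899 for 4 progenitor peaks. At 2 of the 43 the exact interval of the ratio lay below 1, against 7.90% of all shared peaks, and both were at ends of other genes, S100A6 and ECH1. At 0 of the 43 did it lie above 1, against 0.133% of all shared peaks.

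**Figure D5:**
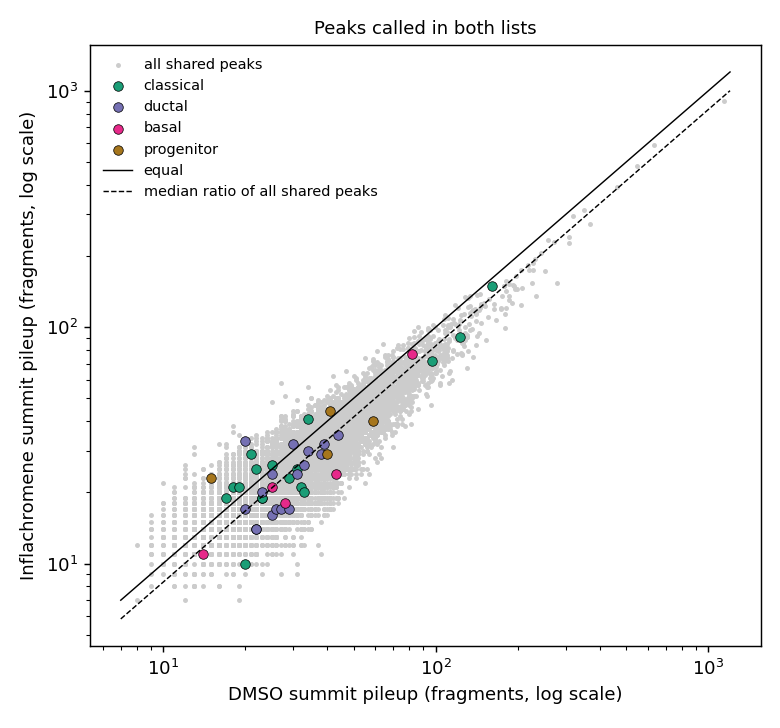
Summit pileup in DMSO against inflachromene, both in fragments on log axes, for all 9796 shared peaks (grey) and the shared peaks near listed genes by class. The solid line is equality and the dashed line the median ratio of 0.833; the coloured points spread around the dashed line.

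Further genes of the same programmes were counted in the same way. In DMSO 3 of 20 further classical genes had an end peak, 3 of 20 further ductal and junction genes and 3 of 20 further basal genes, 15.0% each (3.21 to 37.9), below 45.7%. In inflachromene it was 1 of 20 in each list. The strongest classical one, at ERBB3, a receptor kinase gene, also lay at an end of PA2G4, with 81 and 44 fragments. FOXQ1 (25 fragments) and VSIG2 (18, also at an end of NRGN) had one in DMSO alone. Of the junction genes JUP, plakoglobin, had 72 fragments in DMSO (56.3 to 90.7) and 59 in inflachromene (44.9 to 76.1). OCLN (16) and CTNNB1 (11) had one in DMSO alone. Of the basal genes SLC2A1, a glucose transporter gene, had its strongest peaks at opposite ends, 45 fragments in DMSO at 1 end and 33 in inflachromene at the other. ITGA6 (19) and CTSV (11) had one in DMSO alone.

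Mesenchymal genes were nearer to the genome's share. Of 20 such genes 9 (45.0%, 23.1 to 68.5) had an end peak in DMSO and 6 (30.0%, 11.9 to 54.3) in inflachromene. CAVIN1, a caveolar coat gene, had 28 and 26 fragments, CAV1 55 and 42, and SNAI1, a repressor of E-cadherin, 29 and 25. COL5A1 had 19 in DMSO alone. Against the classical members (2 of 16) the intervals overlapped. None of 12 acinar genes had an end peak in either library, with an exact interval up to 26.5%. Of 12 endocrine genes 2 had one in DMSO, MAFA (30 and 31 fragments) and CHGB (7, in DMSO alone), and of 12 immune genes 3 had one. These were SPI1, a myeloid transcription factor gene (18 and 18), CSF1R (12, in DMSO alone, also at an end of PDGFRB) and CD68 (46 and 42, also at an end of EIF4A1).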

How the data were processed

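The authors deposited 1 narrowPeak list per library, made with MACS2 and deepTools 3.5.6 on hg38, per the submitters' processing notes; no source used here gives the MACS2 version, aligner, control or pooling. Per the narrowPeak layout of the deposited files, each peak has a fold enrichment (ratio over local background), a −log10 p-value and −log10 q-value, a summit offset and a score that was not used. In these files −log10 q began at 3.02 (DMSO) and 3.01 (inflachromene). Whole pileups and backgrounds were recovered from the fold and −log10 p-value deposited by the authors, within 0.001 for every peak, assuming MACS2's formulas. The step was tested on data simulated with the same formulas, which checks the code and not the formulas. Genes came from a RefSeq table of GRCh38.p14, and all 36 members and 152 list entries matched. Strand was known for 19 members through the promoter table. Shares carry Clopper-Pearson and pileups Poisson 95% intervals, ratios the exact conditional interval and medians an order-statistic interval. Named with values were all members with an end peak, for the others the strongest summit inside the gene or else within 50 kb, and from each further list up to 4 genes with the highest DMSO fold at an end; peaks beyond that rule were chosen after their values were seen. Members and lists were chosen with earlier results of these data known. Alternatives changed windows, thresholds, overlap and assignment. Python 3.11.15, pandas 2.3.3 and SciPy 1.17.1 were used.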

Additional observations from a re-analysis of the deposited data

How the results depend on the processing

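With 1 library per treatment no replicate could be left out. No paired analysis was possible because each group holds a single sample. Of 46 values recomputed, 34 stayed within 1.5 times the main count or within the main value's interval. With an end window of 500 bp, 5 members had an end peak in DMSO and 4 in inflachromene, against 42.0% and 34.8% of all coding genes. Within 10 kb of the gene there were 25 DMSO and 19 inflachromene peaks, at 13 members in inflachromene (against 52.4% of all coding genes), and within 100 kb 118 and 86. With peaks kept only where the member was the nearest coding gene, 29 DMSO and 20 inflachromene peaks remained, the latter at 12 members (against 42.2%). Of those DMSO peaks 51.7% (32.5 to 70.6) had no inflachromene peak. That interval includes the 34.4% of all DMSO peaks so assigned. With the DMSO list held to the shorter length by −log10 p, 17.4% of 46 member peaks had none, against 20.6% of all DMSO peaks so cut. The median ratio of shared peaks ran from 0.801 (within 100 kb, and with the nearest-gene rule) to 0.860 with fold enrichment in place of pileup. Leaving out LGALS4, chosen after seeing the data, gave 0.813 and 39.7%.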
